A study of Mus musculus with 6 samples.

Results

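De novo fatty acid synthesis and desaturation is represented here by 10 named genes, Acly, Me1, Acaca, Acacb, Fasn, Elovl5, Elovl6, Scd1, Scd2 and Thrsp. A gene was measured where a probe set carried its symbol and no other, and a gene with several such probe sets was represented by the one with the highest mean signal. This gave values for 9 of the 10 genes, among 30702 named genes and 65956 probe sets in all. The probe set of Scd2 carries a second symbol, so Scd2 was not analysed here. The data are 6 whole-transcript microarrays of inguinal white fat RNA, taken from C57BL/6 males at 2 months of age. The 3 mice labelled KO carried floxed Tfg alleles and Adipoq-ERT2Cre, a Cre recombinase that is switched on by tamoxifen and driven in adipocytes by the adiponectin promoter. The 3 mice labelled WT carried the same floxed alleles without Cre, and both groups received tamoxifen for 5 days with the fat taken 2 weeks later. The groups therefore differ in the Cre transgene as well as in Tfg, and mice with Cre and unfloxed Tfg were not analysed here. Each array was labelled as a separate biological replicate.

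Fatty acids are built in the cytosol from citrate that leaves the mitochondria. ATP citrate lyase (Acly) splits citrate into acetyl-CoA, acetyl-CoA carboxylase (Acaca and Acacb) makes malonyl-CoA from it, and fatty acid synthase (Fasn) joins these units into palmitate with NADPH that malic enzyme (Me1) helps to supply. Elongases such as Elovl5 and Elovl6 lengthen the chain, and stearoyl-CoA desaturases such as Scd1 add a double bond before the fatty acids are stored as triglyceride. Thrsp, also called Spot 14, is a small lipogenic protein whose gene responds to thyroid hormone and carbohydrate. In fat these genes are induced by insulin and feeding, through the transcription factors SREBP-1c and ChREBP.

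The sequences upstream of 4 of these genes are shown as examples. Each is the 250 bases before the transcription start that RefSeq gives on GRCm38.p6, and capitals mark letters that match CCAAT, the box bound by NF-Y, or CACGTG, an E-box, on either strand. Fasn lies at chr11:120824548-120824797, strand -. Thrsp lies at chr7:97417551-97417800, strand -. Elovl5 lies at chr9:77917115-77917364, strand +. Acaca lies at chr11:84195188-84195437, strand +, and has no match in this window. Whether transcription of Acaca in fat begins at this start was not tested. The window may therefore not be its promoter, and the lack of a match says nothing about that promoter.
Fasn: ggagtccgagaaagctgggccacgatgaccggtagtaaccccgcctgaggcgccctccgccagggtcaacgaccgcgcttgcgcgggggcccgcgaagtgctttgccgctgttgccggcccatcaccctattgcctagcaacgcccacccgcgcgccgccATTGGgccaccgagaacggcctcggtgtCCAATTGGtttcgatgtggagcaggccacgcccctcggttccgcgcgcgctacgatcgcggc
Thrsp: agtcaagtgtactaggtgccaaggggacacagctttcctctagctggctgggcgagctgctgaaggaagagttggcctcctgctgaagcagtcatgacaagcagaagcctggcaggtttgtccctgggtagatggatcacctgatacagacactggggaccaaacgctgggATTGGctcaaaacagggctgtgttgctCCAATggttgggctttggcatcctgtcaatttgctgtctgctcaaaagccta
Elovl5: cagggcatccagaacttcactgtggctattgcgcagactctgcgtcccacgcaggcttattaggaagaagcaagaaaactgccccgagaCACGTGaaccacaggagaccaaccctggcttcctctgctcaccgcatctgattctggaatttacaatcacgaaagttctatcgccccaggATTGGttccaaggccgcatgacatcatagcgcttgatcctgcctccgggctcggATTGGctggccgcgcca
Acaca: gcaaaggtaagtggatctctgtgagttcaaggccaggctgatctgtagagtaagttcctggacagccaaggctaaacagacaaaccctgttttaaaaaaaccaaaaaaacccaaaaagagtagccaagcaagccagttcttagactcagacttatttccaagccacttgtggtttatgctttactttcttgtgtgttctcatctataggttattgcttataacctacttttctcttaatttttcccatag

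In Fasn the CCAAT box matched at -90, -62 and -59 from the start, and the matches at -62 and -59 overlap. In Thrsp it matched at -79 and -52, and in Elovl5 at -71 and -17 beside an E-box at -161. RefSeq windows of 300 bases, which add the 50 bases after the start, were found for 8 of the 10 genes, in 9 windows because Me1 has 2. There was none for Scd1 or Scd2. Which starts fat uses was not tested, so a counted window, that of Acaca among them, may not hold the promoter in use. CCAAT stood in 6 of the 9 windows and in 37.4% of all 32851 windows of that length. One of these matches, in Acly, lay after the start, at 38. CACGTG stood in 1 of the 9 windows and in 7.15% of all windows. The core of a sterol regulatory element, TCACNCCAC, stood in 0 of the 9 windows and in 1.24% of all windows. Of the genes with a window, Fasn, Thrsp and Elovl5, which are among those shown, held the most matches. A match is a description of the letters and shows no binding, and a link between matches and expression was not tested.

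Tfg, the targeted gene, read 7.97, 7.94 and 7.91 (log2 signal) with the WT label and 7.99, 8.21 and 8.03 with the KO label, so as deposited it was no lower in the latter. By limma the difference, 0.14 ± 0.11 (SE), was not called (adjusted p = 0.345), and the exact permutation test gave p = 0.1, the smallest that 3 against 3 arrays allow. Set against the housekeeping or adipocyte marker median of each array, the difference in Tfg turned to -1.09 or -2.69, in fits that gave every probe set the same SE. No source used here says which exons of Tfg the probe set reads, and a set outside the deleted exons would check nothing. The arrays are therefore called KO-labelled and WT-labelled. Olfactory receptor probe sets were taken as a stand-in for genes that fat does not use, which was not tested for each receptor. Their 95th percentile was 9.86, 9.80 and 10.11 on WT 1, WT 2 and WT 3, where the median of 17 adipocyte markers was 9.07, 9.82 and 8.04. On the KO-labelled arrays this marker median lay between 11.22 and 12.87, above that percentile on all 3. The fat cell marker Fabp4, chosen here after its values were seen, read 14.45 to 17.96 on WT-labelled arrays.

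All 9 measured genes read higher on the KO-labelled arrays, with no overlap between the groups in any of them. This direction held after quantile normalization, after centring on the array median and relative to housekeeping genes. Relative to adipocyte markers, however, Acly, Elovl5 and Elovl6 turned lower, from WT-labelled values within the olfactory receptor range. By limma, with p adjusted over all 65956 probe sets, 7 of the 9 rose and 0 fell, and Acly and Elovl6 did not pass. Over all probe sets 5.32% were called higher and 15.6% lower, and among named genes 8.91% were called higher. All KO-labelled values lay above all WT-labelled values in 9 of the 9 genes, against 11.1% of all probe sets and 18.5% of named genes, and below them in 0 of the 9, against 44.9% of all probe sets. The median change of the 9 genes was 3.73 on the log2 scale, against -0.37 over all probe sets and -0.27 over named genes. Relative to the median probe set it was 4.10. The median probe set differed by -0.37 itself, and with quantile normalization or median centring 64.6% or 61.2% of all calls were higher, against 25.4% as deposited. Leaving out any 1 of WT 1, WT 2, WT 3 and KO 3 left 0 of the 9 genes and 0 probe sets in all called by limma. At an unadjusted p under 0.05 these fits held 8, 8, 7 and 9 of the 9 genes, and 23757, 25102, 21579 and 28697 probe sets.

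**Figure D1:**
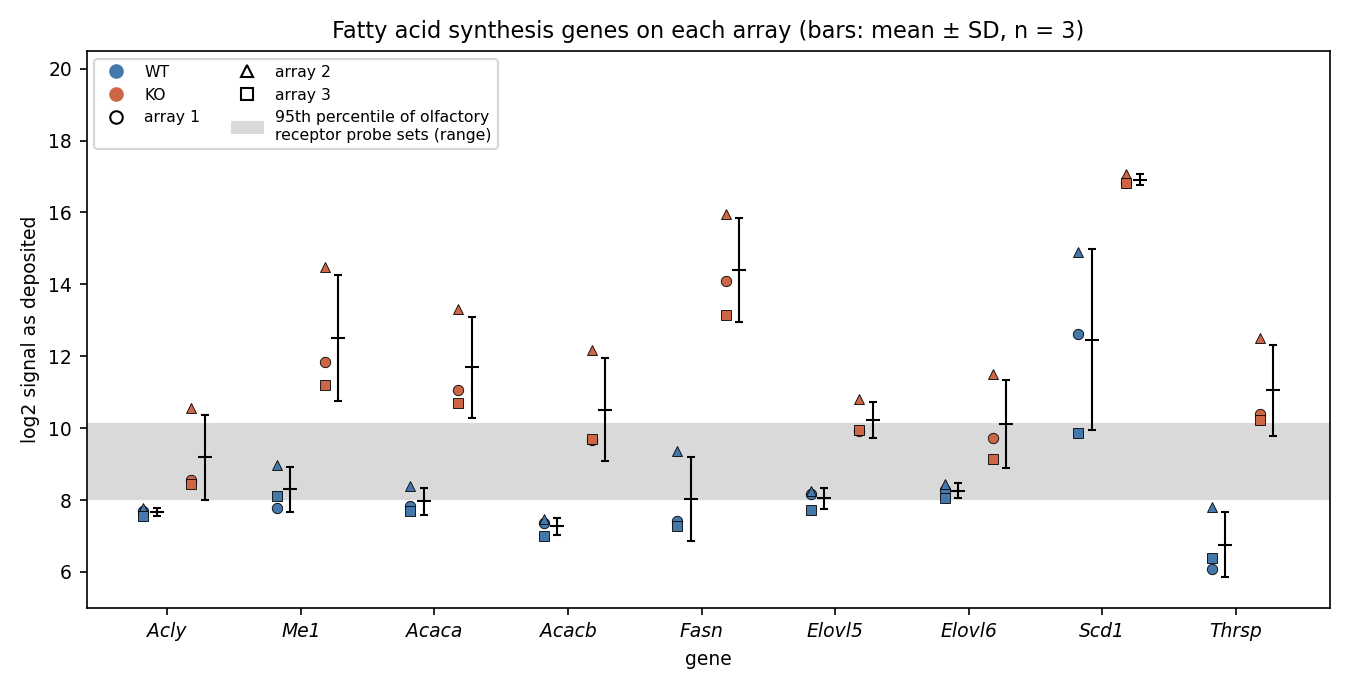
Log2 signal as deposited (vertical axis) of the 9 measured genes (horizontal axis) on each array, with circles, triangles and squares for arrays 1, 2 and 3 of a group, and bars for the mean ± SD of n = 3. The KO-labelled points lie above the WT-labelled points in all 9 genes, although relative to adipocyte markers Acly, Elovl5 and Elovl6 turn lower, and the grey band spans the 95th percentile of olfactory receptor probe sets over the 6 arrays, 8.02 to 10.11.

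The table has no detection calls, so the level of each gene was set against the 1092 olfactory receptor probe sets. Their median lay between 7.39 and 7.59 in the WT-labelled group and between 6.31 and 6.87 in the KO-labelled group. On the KO-labelled arrays 8 of the 9 genes stood above the 95th percentile of these probe sets on all 3 arrays, and Acly did so on KO 2 alone. On the WT-labelled arrays Scd1 stood above it on WT 1 and WT 2, and none of the other 8 genes did on any array. Fasn stood at percentiles 50.5, 91.2 and 40.3 of them on WT 1, WT 2 and WT 3, and Thrsp at percentiles 8.97, 61.5 and 14.1. Scd1 stood at percentile 92.8 on WT 3. The fold changes of the other 8 genes therefore start from WT-labelled values within the range of olfactory receptor probe sets, that of Scd1 does so on WT 3, and their size is uncertain.

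Of the genes that supply the precursor and the reducing power, Me1 rose and Acly did not pass the test. Acly, whose product makes cytosolic acetyl-CoA, read 7.69, 7.77 and 7.56 on WT-labelled arrays and 8.57, 10.56 and 8.45 on KO-labelled arrays. The groups did not overlap, but KO 2 stood 2.05 above the mean of the other KO-labelled arrays, and the difference of 1.52 ± 0.56 (SE) did not pass (adjusted p = 0.0855). Without KO 2 the difference was 0.84 and passed (adjusted p = 0.0225). Me1, whose product makes NADPH in the cytosol, read 7.78, 8.98 and 8.12 on WT-labelled and 11.84, 14.49 and 11.20 on KO-labelled arrays. Me1 rose by 4.22 ± 0.87 (SE), or 18.6-fold (limma adjusted p = 0.0371), and again KO 2 was the highest array. Without KO 2 the change of Me1 was 3.23, and without KO 3 it was 4.87.

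Both acetyl-CoA carboxylase genes rose. Acaca, which encodes the cytosolic enzyme of the committed step, read 7.82, 8.38 and 7.69 on WT-labelled and 11.06, 13.31 and 10.71 on KO-labelled arrays. It rose by 3.73 ± 0.69 (SE), or 13.3-fold (limma adjusted p = 0.0356), with a change of 2.92 without KO 2. Acacb encodes the carboxylase at the mitochondrial surface, whose malonyl-CoA restrains the entry of fatty acids for oxidation. Its signal was 7.36, 7.46 and 7.01 on WT-labelled and 9.68, 12.16 and 9.69 on KO-labelled arrays. It rose by 3.23 ± 0.68 (SE), or 9.40-fold (limma adjusted p = 0.0378), with a change of 2.41 without KO 2. Taken on the same array, Acaca minus Acacb was 0.69 ± 0.23 (SD, n = 3) on WT-labelled and 1.18 ± 0.18 (SD, n = 3) on KO-labelled arrays. The change of this difference, 0.50 ± 0.17 (SE), left the groups without overlap and reached the smallest exact permutation p of 0.1, or 0.2 adjusted over the 2 pairs compared. On all 3 WT-labelled arrays both genes stood within the range of olfactory receptor probe sets, so the WT-labelled difference may not measure the balance of the 2 transcripts and the change is no test of it.

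With each gene read from its probe set of highest mean, Fasn was at place 1 of 30702 named genes ordered by change, although the second probe set of Scd1 changed more, by 6.56. The place of Fasn rests on WT-labelled values within the olfactory receptor range. It read 7.41, 9.37 and 7.28 on WT-labelled and 14.08, 15.97 and 13.15 on KO-labelled arrays. WT 2 and KO 2 stood above the other arrays of their groups, yet the lowest KO-labelled value lay 3.78 above the highest WT-labelled value. The rise was 6.38 ± 0.87 (SE), or 83.3-fold (limma adjusted p = 0.0354). The change was 5.59 without KO 2, 7.005 without KO 3 and 7.05 without WT 2. It was also the gene with the largest change relative to adipocyte markers among the 9, at 3.56 ± 0.53 (SE).

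Of the elongase genes Elovl5 rose and Elovl6 did not pass the test. Elovl5, which extends polyunsaturated fatty acids, read 8.17, 8.26 and 7.72 on WT-labelled and 9.92, 10.82 and 9.94 on KO-labelled arrays. The values within each group were close together, and the rise was 2.18 ± 0.29 (SE), or 4.52-fold (limma adjusted p = 0.0354). Elovl6, which extends palmitate to stearate, read 8.28, 8.45 and 8.05 on WT-labelled and 9.73, 11.50 and 9.14 on KO-labelled arrays. Its difference of 1.86 ± 0.59 (SE) did not pass (adjusted p = 0.0626), and without KO 2 it was 1.18 and passed (adjusted p = 0.0375). Elovl6 minus Elovl5 on the same array was 0.21 ± 0.11 (SD, n = 3) on WT-labelled and -0.10 ± 0.74 (SD, n = 3) on KO-labelled arrays. The groups overlapped, and the change of -0.31 ± 0.43 (SE) gave an exact permutation p of 0.6, or 0.6 adjusted over the 2 pairs. Here too both genes stood within the olfactory receptor range on all WT-labelled arrays.

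Scd1, the main stearoyl-CoA desaturase of fat, was the member whose WT-labelled arrays differed most. It read 12.62, 14.90 and 9.87 on WT-labelled arrays, a range of 5.03, and 16.83, 17.08 and 16.83 on KO-labelled arrays, a range of 0.25. The lowest KO-labelled value lay 1.93 above WT 2. It rose by 4.45 ± 1.18 (SE), or 21.9-fold (limma adjusted p = 0.0479). Without WT 3 the change was 3.15, and without WT 2 it was 5.67. The call was close to the threshold and was lost after quantile normalization (adjusted p = 0.0544). It was also lost without KO 1 (adjusted p = 0.0728) and without KO 2 (adjusted p = 0.101), as well as in the fits without WT 1, WT 2, WT 3 or KO 3. A second probe set named Scd1 read 8.45, 10.85 and 6.52 against 14.93, 15.76 and 14.82. It rose by 6.56 ± 1.05 (SE; limma adjusted p = 0.0354), with the same order of arrays within the WT-labelled group. On WT 1 and WT 3 this probe set lay below the 95th percentile of olfactory receptor probe sets. A comparison of Scd1 with Scd2 could not be made.

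Thrsp read 6.08, 7.80 and 6.40 on WT-labelled and 10.40, 12.52 and 10.23 on KO-labelled arrays. On WT 1 and WT 3 it stood in the lower part of the olfactory receptor range. It rose by 4.29 ± 0.74 (SE), or 19.6-fold (limma adjusted p = 0.0354), with a change of 3.56 without KO 2. In the order of all named genes by change, Scd1 was at place 15, Thrsp at 18, Me1 at 23, Acaca at 49 and Acacb at 97. Elovl5 followed at 401, Elovl6 at 620 and Acly at 974.

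The 9 genes shared the highest array of each group, but not the lowest. KO 2 was the highest KO-labelled array in all 9, and WT 2 the highest WT-labelled array in all 9. WT 3 was the lowest WT-labelled array in 7, and WT 1 in Me1 and Thrsp. KO 3 was the lowest KO-labelled array in 6, and KO 1 in 3, counting Scd1, where both read 16.83. KO 2 exceeded the mean of KO 1 and KO 3 by 2.05 to 2.97 in Fasn, Acaca, Acacb, Acly, Me1, Elovl6 and Thrsp, but by 0.89 in Elovl5 and by 0.25 in Scd1. The medians of the adipocyte, housekeeping and endothelial lists were also highest on WT 2 and KO 2, so this order is not particular to the 9 genes. The median of all probe sets was lowest on KO 2, at 6.47. Over all probe sets KO 2 correlated with KO 1 and KO 3 at 0.960 and 0.965, and KO 1 with KO 3 at 0.986. The same numbers of WT-labelled and KO-labelled arrays come from different mice, and the labels tie them by nothing else.

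Other lists moved across the same arrays. The adipocyte marker median was highest on WT 2 among WT-labelled arrays (9.07, 9.82 and 8.04) and on KO 2 among KO-labelled arrays (11.22, 12.87 and 11.31). Of 17 measured adipocyte markers 12 rose and 0 fell, with a median change of 2.53, among them Adipoq, the adiponectin gene, by 2.93. Of 11 endothelial markers 10 rose and 0 fell, with a median change of 1.45, and the endothelial cadherin gene Cdh5 rose by 4.06. Of 12 housekeeping genes 6 rose and 0 fell, with a median change of 1.11, and Ywhaz, Actb, Rplp0 and Sdha had the smallest p. Over all named genes 8.91% were called higher and 13% lower. The housekeeping median lay between 7.63 and 8.05 in the WT-labelled group and between 8.61 and 9.48 in the KO-labelled group. In whole tissue, more cells of a type and more RNA per cell cannot be told apart. The part of these lists in the results on the fatty acid synthesis genes was not tested beyond the relative values that follow.

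**Figure D2:**
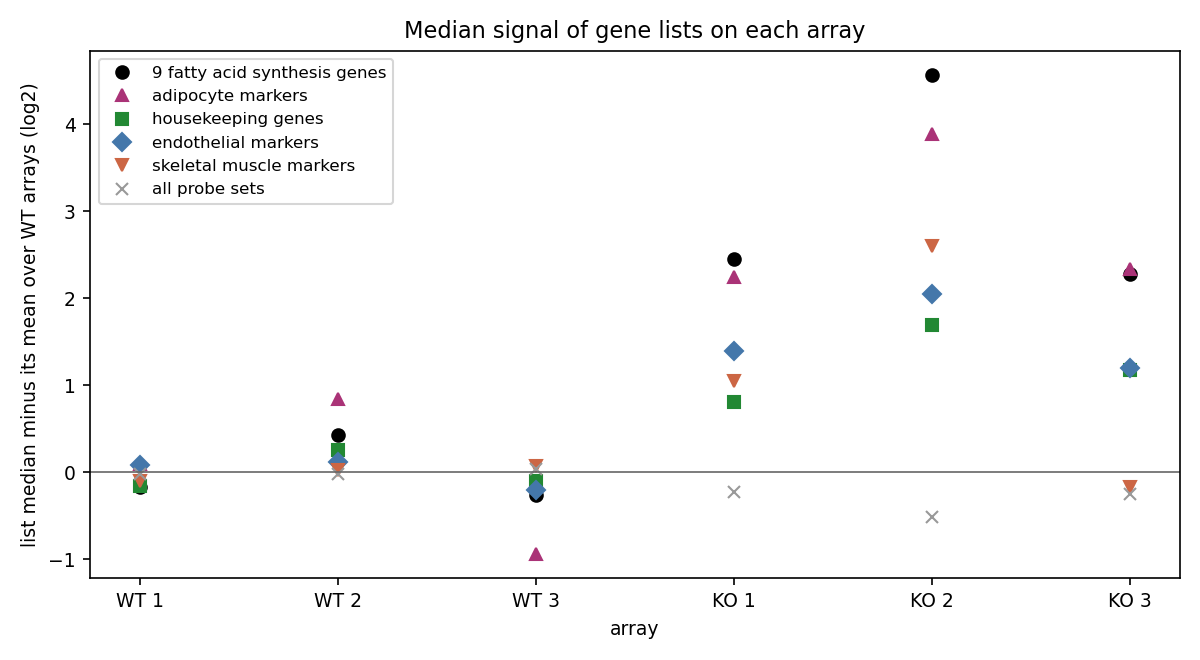
Median log2 signal of gene lists on each array, minus the mean of that median over the 3 WT-labelled arrays (vertical axis), for the 6 arrays (horizontal axis). The fatty acid synthesis genes, the housekeeping genes and the adipocyte, endothelial and skeletal muscle markers are all highest on KO 2, where all probe sets are lowest. The skeletal muscle markers are above the WT-labelled arrays on KO 1 and KO 2 but not on KO 3.

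Set against the median of adipocyte markers on the same array, the 9 genes no longer shared a direction. Fasn stood at -0.96 ± 0.63 (SD, n = 3) on WT-labelled and 2.60 ± 0.67 (SD, n = 3) on KO-labelled arrays, and Thrsp at -2.22 ± 0.70 and -0.75 ± 0.37. In these genes all KO-labelled values remained above all WT-labelled values. Acaca, Acacb, Me1 and Scd1 were higher by 0.91 ± 0.45, 0.41 ± 0.48, 1.39 ± 0.64 and 1.63 ± 1.04 (SE), with overlap between the groups. Acly, Elovl5 and Elovl6 were lower, by values of -1.30 ± 0.48, -0.65 ± 0.43 and -0.96 ± 0.47 (SE). On all WT-labelled arrays these 3 genes stood within the olfactory receptor range, so their lower values may not measure a relative fall of the transcripts. Of the 9 exact permutation tests none can go below p = 0.1, which Fasn, Acly and Thrsp reached (adjusted p = 0.257 over the 9). Set against the housekeeping median, all 9 differences were positive, from 0.29 ± 0.48 (SE) in Acly to 5.15 ± 0.86 in Fasn. The groups overlapped there in Acly and Elovl6 and in none of the other 7.

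**Figure D3:**
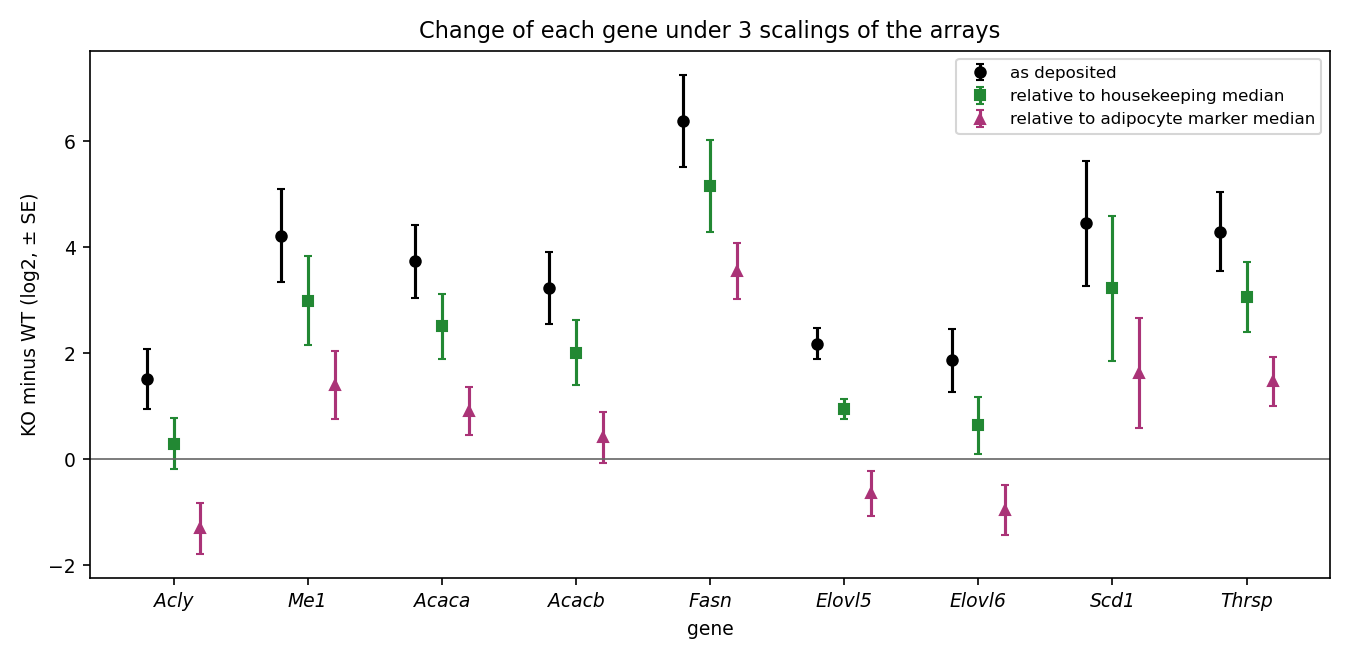
KO-labelled minus WT-labelled difference on the log2 scale (vertical axis) of each gene (horizontal axis), as deposited with the SE of the limma fit, and relative to the housekeeping or adipocyte marker median of the same array with the SE from the 3 and 3 values. Acly, Elovl5 and Elovl6 lie below 0 only relative to adipocyte markers, and Fasn lies highest under all 3 scalings. The WT-labelled values of Acly, Elovl5 and Elovl6 lay within the olfactory receptor range, so their place below 0 may not measure a relative fall.

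Markers of other tissues that use this pathway or border on this fat were also read. Of 13 skeletal muscle markers 0 were called by limma, and their median was 6.95 to 7.13 on WT-labelled arrays, 8.10 on KO 1, 9.66 on KO 2 and 6.89 on KO 3. The actin gene Acta1 read 9.59, 11.79 and 7.80 on the KO-labelled arrays. On KO 3, where this list stood just below its WT-labelled range, the median of the 9 genes' differences from their own WT mean was 2.75, against 3.10 on KO 1 and 4.88 on KO 2. These values rest on single arrays, and any part of muscle in the rise of the 9 genes was not tested. Mammary epithelium also makes fatty acids, and of its 16 markers 0 rose and 3 fell, with Epcam at 6.70, 6.50 and 6.64 against 6.34, 6.08 and 6.28. Of 12 skin and sebaceous gland markers 0 rose and 2 fell, with Krt10 0.30 lower without passing (adjusted p = 0.17). Of 12 brown and beige adipocyte markers 3 rose and 0 fell, and Cox8b had the largest change, 3.53. All KO-labelled values lay above all WT-labelled values in 6 of the 12 and below them in 3, against 11.1% and 44.9% of all probe sets. Ucp1, the uncoupling protein gene, was 0.95 higher without passing (limma adjusted p = 0.06). It read 5.40, 5.65 and 5.34 on WT-labelled arrays, below the olfactory receptor median of each. Of 11 lymphocyte markers 0 rose and 4 fell, Cd79a among them, at a change of -0.52. The mammary, skin and lymphocyte lists had median changes of -0.38, -0.345 and -0.52, where the median probe set differed by -0.37. On WT-labelled arrays their medians lay between 6.535 and 7.045, below the lowest olfactory receptor median of these arrays, 7.39. Of named genes 13% were called lower, and whether these tissues were reduced was not tested. Of 12 macrophage markers 3 rose and 1 fell, with Adgre1 at a difference of -0.03, and of 10 progenitor and fibroblast markers 1 rose and 0 fell, Pdgfra not being measured.

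Of 88 measured genes in 6 further lists of the pathway 23 rose and 0 fell, where 8.91% of named genes were called higher and 13% lower. In the supply of citrate and acetyl-CoA 8 of 10 rose and 0 fell, with a median change of 1.86. The mitochondrial citrate carrier gene Slc25a1, which exports the substrate of ATP citrate lyase, read 7.47, 7.73 and 7.45 on WT-labelled and 9.50, 11.73 and 9.72 on KO-labelled arrays. It rose by 2.77 ± 0.59 (SE; limma adjusted p = 0.0378). The pyruvate dehydrogenase genes Pdhb and Pdha1 rose by 3.30 and 2.14, the pyruvate carboxylase gene Pcx by 2.66 and the malate dehydrogenase gene Mdh1 by 1.58. Relative to the housekeeping median this count fell to 5 of 10, and relative to the adipocyte marker median to 0, in fits that gave every probe set the same SE.

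**Figure D4:**
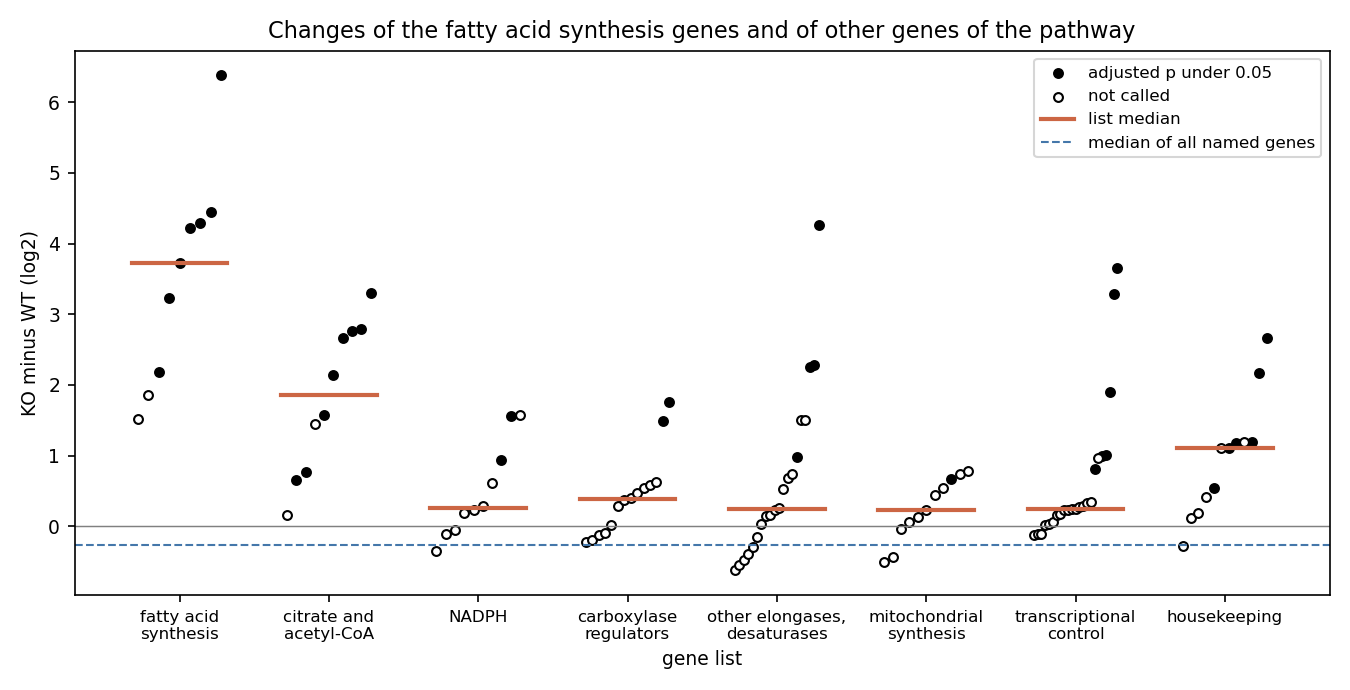
KO-labelled minus WT-labelled difference on the log2 scale, as deposited (vertical axis), of every measured gene in the fatty acid synthesis set and 7 other lists (horizontal axis), with filled points for an adjusted p under 0.05, a bar for each list's median and a dashed line at -0.27, the median of all named genes. The set has the highest list median, 3.73, and the citrate and acetyl-CoA list follows at 1.86.

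In the remaining lists the shares called can be set against the same 8.91% of named genes. Of 10 measured genes of NADPH supply 2 rose and 0 fell, the pentose phosphate enzyme gene Taldo1 by 1.56 and the NAD kinase gene Nadk by 0.93. Of 14 regulators of acetyl-CoA carboxylase 2 rose and 0 fell, Prkaa1 by 1.76 and Prkag1 by 1.49, which both encode subunits of the AMP-activated kinase that inhibits the carboxylase. Mid1ip1, a relative of Thrsp that promotes polymers of the carboxylase, stood at a difference of -0.10 (adjusted p = 0.679). Of 20 other genes of elongation and desaturation 4 rose and 0 fell. These were Hacd2, by 4.26, Hsd17b12, by 2.28, and Tecr, by 2.25, which encode the dehydratase and the reductases of the elongation cycle, and the cytochrome b5 reductase gene Cyb5r3, by 0.98. Elovl3, the elongase of brown fat and skin, read 7.18, 7.20 and 7.92 on WT-labelled and 6.85, 6.67 and 6.91 on KO-labelled arrays, a difference of -0.62 that did not pass (adjusted p = 0.0824). Of 11 genes of mitochondrial fatty acid synthesis 1 rose and 0 fell, the acyl carrier protein gene Ndufab1, by 0.67. The counts of these lists depended on the scaling. After quantile normalization the NADPH list held 1 call and the carboxylase regulators 0, and after median centring the carboxylase regulators held 4, the elongation and desaturation list 7 and mitochondrial synthesis 2. Relative to the housekeeping median the NADPH list, the carboxylase regulators and mitochondrial synthesis held 0 calls, and relative to the adipocyte marker median all 4 lists held 0.

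Of 23 measured genes of transcriptional control 6 rose and 0 fell, with a median change of 0.25. The count that rose was 6 after quantile normalization and 8 after median centring. It was 2 relative to the housekeeping median and 0 relative to the adipocyte marker median. Insig1, which holds the sterol regulatory proteins in the endoplasmic reticulum and is itself a target of them, rose by 3.28 ± 0.20 (SE; limma adjusted p = 0.0305). Pparg, the nuclear receptor of fat cell differentiation and also one of the adipocyte markers used above, rose by 3.66, the coactivator gene Crebbp by 1.90, and Mlx, whose product pairs with ChREBP, by 0.81. Mlxipl, which encodes ChREBP, read 7.58, 7.56 and 7.40 on WT-labelled and 8.36, 9.10 and 7.98 on KO-labelled arrays. The groups did not overlap, but the difference of 0.97 did not pass (adjusted p = 0.0558). Nr1h3, which encodes the liver X receptor of fat and liver, stood at a difference of 0.18 (adjusted p = 0.214). The probe set of Srebf1 carries a second symbol, so Srebf1 was not analysed here.

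Among 21259 other named genes, leaving out predicted ones, the 5 most like the set were Gpd1, Cox8b, Tgoln1, Higd2a and Uqcr10. Likeness was the root mean square difference, over the 6 arrays, between a gene's deviation from its own WT mean and the median deviation of the 9 genes. It was 0.13 for Gpd1, the cytosolic glycerol-3-phosphate dehydrogenase gene, and 0.13 for Cox8b, a cytochrome c oxidase gene of muscle and brown fat. It was 0.16 for Tgoln1 and 0.20 and 0.21 for Higd2a and Uqcr10, genes of the respiratory chain. Among the 9 genes themselves it was smallest for Acaca, at 0.20, and largest for Fasn, at 2.06. These values describe the arrays and carry no test.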

How the data were processed

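RNA from 3 KO-labelled and 3 WT-labelled mice was read on 1 array each. Per the submitters' processing notes the authors used Transcriptome Analysis Console. The authors deposited 1 log2 signal for each probe set. No source used here gives their background correction, normalization, summary method or genome build. Array medians lay between 6.47 and 7.02. No depth applies to arrays, and their number limits the precision. Symbols came from GEO's platform annotation, updated through RefSeq genes of GRCm38.p6: 31258 probe sets had 1 symbol, 1492 several and 33206 none.

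KO-labelled arrays were compared with WT-labelled arrays by limma 3.58.1 in R 4.3.3 (lmFit, eBayes without trend, Benjamini-Hochberg over all 65956 probe sets, adjusted p under 0.05 as a call). Single values were compared by exact 2-sided permutation tests in scipy 1.17.1. The fit was tested on simulated arrays with independent noise for each probe set and no shift of a whole array. That test therefore does not cover the differences between whole arrays seen here. The p-values measure the spread between these mice. The members and lists were chosen with earlier results of these data known. Text names the members, Tfg, up to 4 called genes per pathway list with the smallest p, a fixed set of regulators and markers, and the 5 genes most like the members. Alternatives covered scaling, filters, variance models, array weights, the replicate block, probe set choice, the threshold and leaving out each array. Replicate numbers were not taken to pair the mice.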

Additional observations from a re-analysis of the deposited data

How the results depend on the processing

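All 9 genes kept their direction under the alternatives other than centring on adipocyte markers. There Acly, Elovl5 and Elovl6 reversed to -1.30, -0.65 and -0.96, 1 of the 9 genes was called and their median change was 0.91. The reversed genes had WT-labelled values within the olfactory receptor range, so the reversals may not measure a relative fall. Centred on housekeeping genes the median change was 2.50, and Tfg reversed to -1.09, or to -2.69 with adipocyte markers. Under these 2 centrings eBayes gave every probe set the same SE, so the calls carry no error of the single gene. Probe sets called higher numbered 3509, with 588 and 22 under these centrings and 5902 at an adjusted p under 0.1. Those called lower numbered 10282, with 2212 after quantile normalization, 3259 after median centring, 58803 and 63678 under the 2 centrings, 17432 with array weights, 6773 among probe sets with 1 symbol and 24774 at an adjusted p under 0.1. Higher calls were 25.4% of all calls as deposited, 64.6% after quantile normalization and 61.2% after median centring.

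Leaving out 1 array gave 0 to 8 of the 9 genes called, a median change of 2.92 to 4.22, 0 to 3469 probe sets called higher and 0 to 10697 lower. A change of Tfg of 0.07 to 0.18 was found across these fits, without a call. Acaca minus Acacb changed by 0.38 to 0.61, and Elovl6 minus Elovl5 by -0.705 to 0.035, the last without KO 3. Elovl6 passed with array weights (adjusted p = 0.0468) and among probe sets with 1 symbol (adjusted p = 0.0494). With the replicate number as a block 7 of the 9 genes were called and 2960 probe sets higher and 8267 lower. Deviations of same-numbered arrays correlated at 0.0015, 0.205 and 0.139, and those of different-numbered arrays at -0.216 to 0.171. Deviations from the mean of 3 arrays are tied to each other, so these values cannot decide whether mice were paired. The numbers were not taken as pairs because the labels state no pairing. Citrate supply genes called numbered 5 and 0 under the 2 centrings.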
